A study of Homo sapiens with 4 samples.

Results

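Intron-only H3K4me3 peaks are intervals enriched for trimethylated lysine 4 of histone H3 that lie in an intron of at least 1 annotated transcript and touch neither an exon nor the 20 kb upstream of any transcript. They were picked by the yes or no flags that accompany each pair of a peak and a RefSeq transcript. Of 24212 distinct H3K4me3 peaks in RS4;11 cells 7279 qualified (30.1%), and of 26523 in THP-1 cells 7100 qualified (26.8%), 14379 of the 50735 H3K4me3 peaks of both lines and of the 51663 peaks of the series. A flag for the 20 kb downstream of another transcript was allowed, and 638 RS4;11 and 628 THP-1 members carried it.

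The study profiled H3K4me3 (antibody ab8580) and WDR5 (ab56919) by ChIP-seq in 2 human leukemia lines that, per the study, both carry a rearranged MLL gene, RS4;11, a B-cell precursor acute lymphoblastic line, and THP-1, a monocytic acute myeloid line. Each combination of line and antibody was 1 sample of cultured cells, so no difference between the lines has a replicate check, and line and library cannot be told apart. The label of the RS4;11 H3K4me3 sample gives the myeloid type of leukemia, and the label of THP-1 WDR5 cells names the lymphoblastic one. In the H3K4me3 peaks, start sites of CD79A and CD79B were covered in RS4;11 cells alone, and those of CSF1R, ELANE, S100A8, S100A9 and ITGAM in THP-1 cells alone.

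Those markers belong to lists in which 5 of 10 B-lineage genes had a peak over a start site in each line, against 4 of 12 (RS4;11) and 8 of 12 (THP-1) monocyte genes, 2 of 7 and 1 of 7 T-cell genes, and 0 of 4 erythroid genes in both. Other markers went against the line: PAX5 and EBF1, which define the B lineage, and RAG2 were covered in THP-1 cells alone, and the monocyte factor SPI1 in RS4;11 cells alone. By the measure planned first, a peak with an exon or upstream flag, 6 (RS4;11) and 7 (THP-1) of 10 B-lineage genes were marked. The counts were 8 and 11 of 12 monocyte, 6 and 4 of 7 T-cell, and 2 and 1 of 4 erythroid genes. By that measure CD79B, ELANE, S100A9, ITGAM and SPI1 were marked in both lines. CD79A, CSF1R, S100A8, PAX5, EBF1 and RAG2 were still marked in 1 line alone. Absence from a list has little weight here. No listed peak was wider than 4478 bp in RS4;11 or 4446 bp in THP-1 cells, and of 13 genes that every cell uses, chosen after the data were seen, 5 and 4 had a peak over a start site, with none listed at ACTB or GAPDH in either line. Over all 19807 protein-coding genes the shares were 52.3% and 57.6%.

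H3K4me3 is written by the MLL and SET1 methyltransferases, whose shared core contains WDR5, and it is best known as the mark of active promoters, most of which lie in CpG-rich DNA. Inside genes it is found at alternative promoters and, more weakly, at some enhancers, where H3K4me1 usually dominates. Long introns hold many of the enhancers that set the expression of blood cell genes.

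The sequences below were picked to show very wide members with CpG-rich and with CpG-poor centers (defined below). Their even number does not reflect the members, most of which were CpG-poor. Of the members in the widest quartile of all peaks, 11.3% (RS4;11) and 17.2% (THP-1) were CpG-rich. Among all members these shares were 3.3% and 5.65%. Each is the middle 241 bp of a member on the plus strand of GRCh37 (hg19), within an intron of the named gene, with every CpG in capitals. RAP1GAP2 and FRMD4B held the 2 widest members in RS4;11 cells, and ARID1B and SDCCAG8 held 2 of the 3 widest in THP-1 cells.
RAP1GAP2, chr17:2756849-2757089: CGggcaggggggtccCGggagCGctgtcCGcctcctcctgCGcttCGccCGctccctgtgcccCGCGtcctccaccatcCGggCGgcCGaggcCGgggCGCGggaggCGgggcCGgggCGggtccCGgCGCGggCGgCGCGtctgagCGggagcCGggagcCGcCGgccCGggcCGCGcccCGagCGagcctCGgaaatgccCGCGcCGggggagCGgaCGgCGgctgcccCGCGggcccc
ARID1B, chr6:157342082-157342322: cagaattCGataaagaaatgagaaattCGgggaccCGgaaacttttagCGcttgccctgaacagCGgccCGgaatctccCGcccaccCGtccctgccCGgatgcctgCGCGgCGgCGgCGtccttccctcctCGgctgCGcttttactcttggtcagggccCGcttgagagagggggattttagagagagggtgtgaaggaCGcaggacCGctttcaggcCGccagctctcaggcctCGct
FRMD4B, chr3:69401935-69402175: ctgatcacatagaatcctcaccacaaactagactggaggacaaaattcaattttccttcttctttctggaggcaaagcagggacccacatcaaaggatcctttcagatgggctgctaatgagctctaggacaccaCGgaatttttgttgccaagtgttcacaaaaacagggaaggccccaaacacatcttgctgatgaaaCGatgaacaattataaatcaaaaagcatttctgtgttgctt
SDCCAG8, chr1:243635772-243636012: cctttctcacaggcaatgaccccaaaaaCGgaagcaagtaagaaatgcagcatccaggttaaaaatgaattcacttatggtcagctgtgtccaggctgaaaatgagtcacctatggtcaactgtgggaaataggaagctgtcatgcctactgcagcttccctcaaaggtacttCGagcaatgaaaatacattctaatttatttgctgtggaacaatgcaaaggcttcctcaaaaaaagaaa
The RAP1GAP2 segment holds 42 CpG and the ARID1B segment 21, against 2 in FRMD4B and 2 in SDCCAG8.

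Members that were not shared between the lines differed in the short sequence motifs they carried. The next segments, reaching 50 bp to each side of the middle of a motif on the plus strand, come from unshared members of genes with many more members in 1 line, with the letters of the EBF1 motif (CCCNNGGGA, RS4;11 members of AUTS2, RAD51B and CACNA1C) or the CEBP motif (TTGCNNAAT, THP-1 members of SDK1 and MCF2L2), on either strand, in capitals.
AUTS2, chr7:69881686-69881786: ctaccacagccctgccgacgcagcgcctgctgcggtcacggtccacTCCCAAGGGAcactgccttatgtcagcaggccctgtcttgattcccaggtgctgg
RAD51B, chr14:68916452-68916552: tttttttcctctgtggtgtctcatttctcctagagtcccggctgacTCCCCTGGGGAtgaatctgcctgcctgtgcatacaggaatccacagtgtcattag
CACNA1C, chr12:2435060-2435160: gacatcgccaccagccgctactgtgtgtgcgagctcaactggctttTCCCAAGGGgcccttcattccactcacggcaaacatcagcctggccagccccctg
SDK1, chr7:3954226-3954326: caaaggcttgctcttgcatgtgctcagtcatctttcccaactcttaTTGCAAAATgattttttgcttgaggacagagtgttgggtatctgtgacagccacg
MCF2L2, chr3:182978260-182978360: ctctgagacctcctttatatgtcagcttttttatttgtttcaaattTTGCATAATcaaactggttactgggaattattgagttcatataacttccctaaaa

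Intron-only peaks were narrow. Their median width was 887 bp in RS4;11 cells (range 191 to 4277 bp) and 812 bp in THP-1 cells (223 to 4030 bp), against 1880 bp and 1614 bp for the other H3K4me3 peaks of the same lines. Only 7.47% and 4.1% of members exceeded 2000 bp, against 46.6% and 38.9% of the other peaks. These widths are a description, because a wider interval reaches an exon more often and the rule then drops it. Peaks that lay only in the 20 kb downstream of transcripts, which likewise exclude any interval reaching an exon, had medians of 920 and 878 bp.

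**Figure D1:**
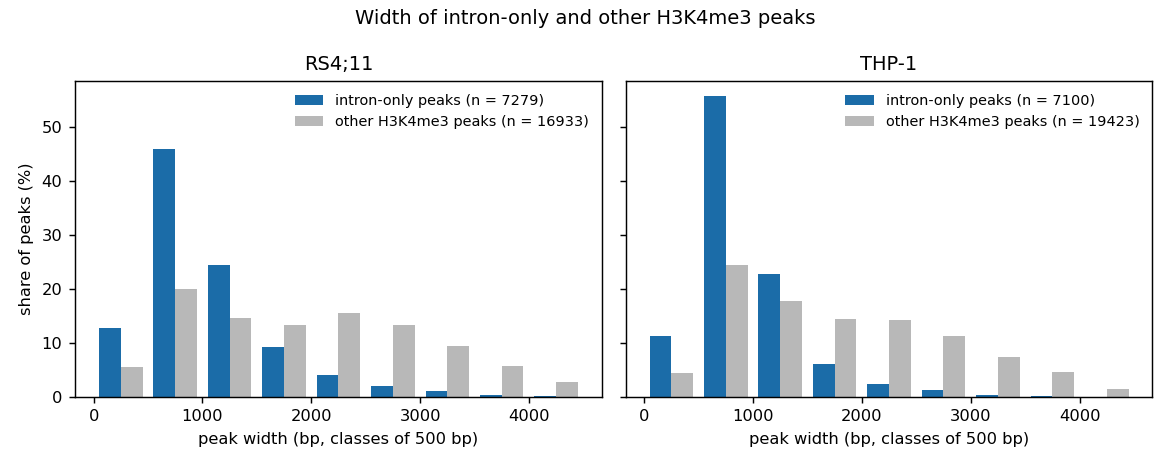
Share of peaks (%, vertical axis) in each class of 500 bp of width (horizontal axis, bp) for intron-only (blue) and other (grey) H3K4me3 peaks, 1 sample per line. The class of 500 to 1000 bp held 46% of the RS4;11 and 55.8% of the THP-1 intron-only peaks, against 20% and 24.4% of the others, and no peak lies beyond 4500 bp.

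The widest members were not of one kind. In RS4;11 cells they lay in RAP1GAP2, which encodes a GTPase-activating protein for Rap1 (4277 bp), in FRMD4B (4240 bp), in the Argonaute gene AGO2 (4209 bp), in L3MBTL4 (4075 bp) and in UNC79, a partner of a sodium leak channel (4058 bp). The first 3 were shared with THP-1 cells and the last 2 were not. The RAP1GAP2 member was 83.8% GC within 250 bp of its center and covered an annotated start site, while the UNC79 member was 39.7% GC and lay 68658 bp from the nearest one. The FRMD4B (39.1% GC) and L3MBTL4 (37.1% GC) members also covered one.

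In THP-1 cells the widest lay in AHRR, the repressor of the aryl hydrocarbon receptor (4030 bp), in ARID1B, a subunit of the BAF chromatin remodeling complex (3951 bp), in SDCCAG8 (3852 bp), in FAM117A (3847 bp) and in KDM2B, a histone demethylase that binds CpG islands (3828 bp). The members in AHRR, ARID1B and KDM2B covered an annotated start site. Those in SDCCAG8 and FAM117A lay 13299 and 4426 bp from one. Of these 5, the SDCCAG8 and KDM2B members were shared with RS4;11 cells.

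Most intron-only peaks were seen in 1 line. An H3K4me3 peak of the other line overlapped, by 1 bp or more, 1952 of the 7279 RS4;11 members (26.8%, 95% Wilson interval 25.8 to 27.8%) and 2049 of the 7100 THP-1 members (28.9%, 27.8 to 29.9%). Over all H3K4me3 peaks the overlap was found in 55.8% (RS4;11) and 51.8% (THP-1) of cases, and the peaks that were not intron-only in 68.3% and 60.2%. The odds of sharing were lower for members in both lines, with odds ratios of 0.170 (0.160 to 0.181) and 0.268 (0.253 to 0.284) and base-10 logarithms of the p of -787.2 and -455.6 (Fisher's exact test, two-sided, with Benjamini-Hochberg adjustment over 6 tests moving no call). By the rule, peaks at annotated exons and upstream regions stay among the other peaks. An annotated start site lay within 1000 bp of 69.1% and 70.4% of the other peaks, against 15.0% and 17.8% of members. The tests thus largely set peaks near start sites against peaks away from them. Intervals and tests here are over the peaks of single libraries and do not cover variation between cultures, and a member whose partner is missing from the list of the other line counts as unshared.

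Sharing rose with width in members and in other peaks alike, and members were below in every class. From the narrowest to the widest quartile of all peaks of the line, 20%, 26.7%, 38.2% and 51.8% of RS4;11 members were shared, and 19.7%, 30.1%, 47.9% and 52.7% of THP-1 members. Within width quartiles the odds ratios were 0.326 (RS4;11, exact p 5.1e-264) and 0.578 (THP-1, exact p 1.0e-62). Against downstream-only peaks, a comparison added after the data were seen, they were 0.48 (0.43 to 0.535, Fisher's exact p 1.5e-38) and 0.639 (0.575 to 0.71, Fisher's exact p 1.8e-16), since 43.3% and 38.8% of those peaks were shared.

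**Figure D2:**
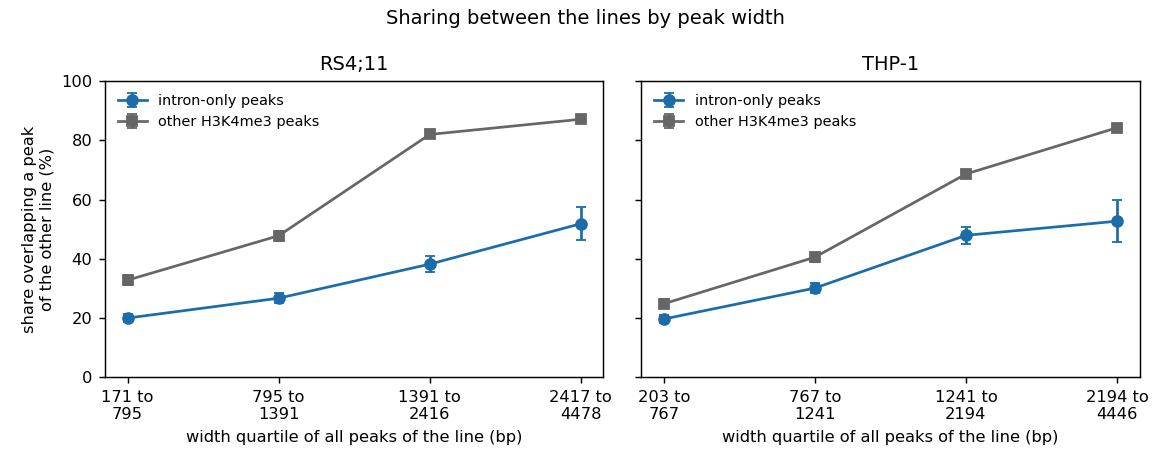
Share of peaks that overlap a peak of the other line (%, vertical axis, bars are 95% Wilson intervals over peaks) by width quartile of all H3K4me3 peaks of the line (horizontal axis, bp). Intron-only peaks (blue) rise from 20% to 51.8% in RS4;11 and from 19.7% to 52.7% in THP-1 cells and stay below the other peaks (grey) in each quartile.

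Where a member was shared, the partner was nearly always intron-only too, for 1891 of 1952 RS4;11 members (96.9%) and 1894 of 2049 THP-1 members (92.4%). These formed 1900 overlapping pairs, whose centers lay a median of 122 bp apart, and in 98.7% of them the overlap covered at least 50% of the narrower peak. Thus the shared members had nearly the same position in both lines. Their widths tracked each other loosely (Spearman's rank correlation 0.42 over 1900 pairs, given as a description), and the RS4;11 peak was the wider in 56.8%. Shared members were wider than unshared ones, with medians of 1061 against 839 bp in RS4;11 and 968 against 766 bp in THP-1 cells.

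Few members lay in CpG-rich DNA. With CpG-rich defined as more than 50% GC and an observed over expected CpG ratio above 0.6 within 250 bp of the peak center, 240 RS4;11 members (3.3%) and 401 of 7099 THP-1 members on the reference (5.65%) qualified. The shares of all H3K4me3 peaks were 33.6% and 36.9%, and those of the peaks that were not intron-only 46.7% and 48.4%. The odds ratios were 0.0390 (0.0342 to 0.0445) and 0.0639 (0.0576 to 0.0710), with base-10 logarithms of the Fisher's exact p of -1175.4 and -1075.0. The rule leaves peaks at annotated exons and upstream regions, and so annotated promoters, among the other peaks. A lower share in members therefore follows in part from the rule, and these tests cannot tell that part apart. Downstream-only peaks were CpG-rich in 18% and 21.4%, and members remained below them (odds ratios 0.156 and 0.22, Fisher's exact p 8.4e-89 and 1.4e-84).

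The CpG-rich members stood apart from the rest of the members. They were shared in 70.8% (RS4;11) and 49.1% (THP-1) of cases against 25.3% and 27.7% of the CpG-poor ones. An annotated start site of GENCODE, which lists more transcripts than the flags do, lay within 1000 bp of 52.5% and 59.4% of them, against 13.7% and 15.3% of the CpG-poor members. Their median widths were 1309 and 1126 bp, against 881 and 803 bp.

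Across all members a GENCODE start site lay within 1000 bp for 1089 in RS4;11 (15.0%) and 1265 in THP-1 cells (17.8%), against 69.1% and 70.4% of the other peaks. The nearest such site belonged to a protein-coding gene in 70.3% and 75.6% of these members and to a long noncoding RNA gene in 18.1% and 14.5%. Such genes also have noncoding transcripts, and a start site of a protein-coding transcript lay within 1000 bp of only 435 and 620 members. With GENCODE in place of the flags, 3526 RS4;11 and 3364 THP-1 peaks would be intron-only, and 3344 and 3146 members would be among them. The remaining members touch an exon, or the 20 kb before a start, of a GENCODE transcript that the flags do not reflect, or lie in no GENCODE intron.

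WDR5 peaks rarely lay under H3K4me3 peaks of any kind, in 58 of 24212 (RS4;11) and 27 of 26523 (THP-1) cases. They were few, since 50735 of the 51663 peaks of the series were H3K4me3 peaks, and this limits any share of overlap. In RS4;11 cells 11 members (0.151%, 0.0844 to 0.270%) overlapped a WDR5 peak of the same line, against 0.24% of all H3K4me3 peaks and 0.278% of those that were not intron-only. In THP-1 cells there were 4 (0.0563%, 0.0219 to 0.145%), against 0.102% and 0.118%. Neither difference passed the test (odds ratio 0.544, 0.282 to 1.05, Fisher's exact p 0.084, and 0.475, 0.164 to 1.38, Fisher's exact p 0.2).

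In RS4;11 cells the 11 members lay in SMAP2, NPAS3, RIN3, ZNF423, ST3GAL2, CBFA2T3, SLC39A11, SH3RF3, CHMP4B, MUC4 and SENP5. CBFA2T3 encodes a transcriptional corepressor of blood progenitors, and its member, 1044 bp wide, enclosed a WDR5 peak of 463 bp. The member in SMAP2, an ArfGAP gene, was the widest of them at 2422 bp and enclosed a WDR5 peak of 579 bp. In THP-1 cells the 4 members lay in BTRC, GLI2, FMNL2 and SENP5 and were narrow, from 346 to 532 bp.

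SENP5, a gene for a SUMO protease, was the only host of such a member in both lines. The intervals were 503 bp wide in RS4;11 and 366 bp in THP-1 cells, and the WDR5 peaks 496 and 701 bp. The unit ATTCC, searched on both strands after the sequence had been read, occurred 17.9 times per kb in the RS4;11 interval and 24.6 times per kb in the THP-1 interval, on the strand that held more copies. That was rank 1 among all members of each line, whose medians were 1.37 and 1.42 per kb. The unit was picked from this sequence, so a high rank follows in part from the choice. The intervals of the lines overlap each other, so their ranks are not separate observations. Any part of the unit in the overlap with WDR5 peaks was not tested.

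Intron-only peaks lay in 3476 genes in RS4;11 and 3775 in THP-1 cells, of which 2248 hosted a member in both (64.7% and 59.5%). A gene counts as shared wherever its members lie, so these shares cannot be set against those of positions. Along protein-coding genes the median distance from the gene start to a member was 71.6 kb and 61.7 kb. Per Mb of intron the members numbered 3.08 (Poisson error 0.2) and 4.76 (0.25) in the 5 kb after the start, 6.58 (0.17) and 6.46 (0.16) from 20 to 50 kb, and 5 (0.13) and 4.09 (0.11) beyond 200 kb. The density was thus lowest at the gene start in RS4;11 cells and beyond 200 kb in THP-1 cells. The rule itself drops peaks that reach the exon at the start or the 20 kb upstream of any transcript. With the upstream flag allowed, 8099 RS4;11 and 8018 THP-1 peaks would be intron-only. Members in the 5 kb after the start were shared in 40.5% and 43.9% of cases and those beyond 200 kb in 21.2% and 26.1%.

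Clusters of 3 or more members in 1 gene were common. They occurred in 833 genes in RS4;11 and 794 in THP-1 cells and took in 3973 (54.6%) and 3453 (48.6%) of the members. In 385 genes there were 3 or more in both lines (46.2% and 48.5%), while 111 of the RS4;11 (13.3%) and 120 of the THP-1 cluster genes (15.1%) had none in the other line. Having none was less frequent than over all host genes, of which only 64.7% and 59.5% hosted a member in the other line. As many as 10 or more members were found in 52 and 23 genes. Neighboring members of a cluster lay a median of 21.1 kb and 27.1 kb apart, and 0.953% and 1.05% of these spacings were under 2 kb, and after members within 1000 bp were merged 829 and 784 cluster genes were left.

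Cluster genes were long. The median gene length was 81.6 and 81.3 kb for hosts of 1 member, 243 and 242 kb for hosts of 3 or more, and 432 and 530 kb for hosts of 10 or more (Spearman's rank correlation of number and length 0.45 over 3421 and 0.48 over 3710 genes, as a description, since a longer gene has more room). No peak with an exon or upstream flag was listed in the same line for 184 of the RS4;11 cluster genes (22.1%) and 121 of the THP-1 cluster genes (15.2%), below the shares over all host genes (26.2% and 19.4%), and within the limit on absent wide peaks given above.

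**Figure D3:**
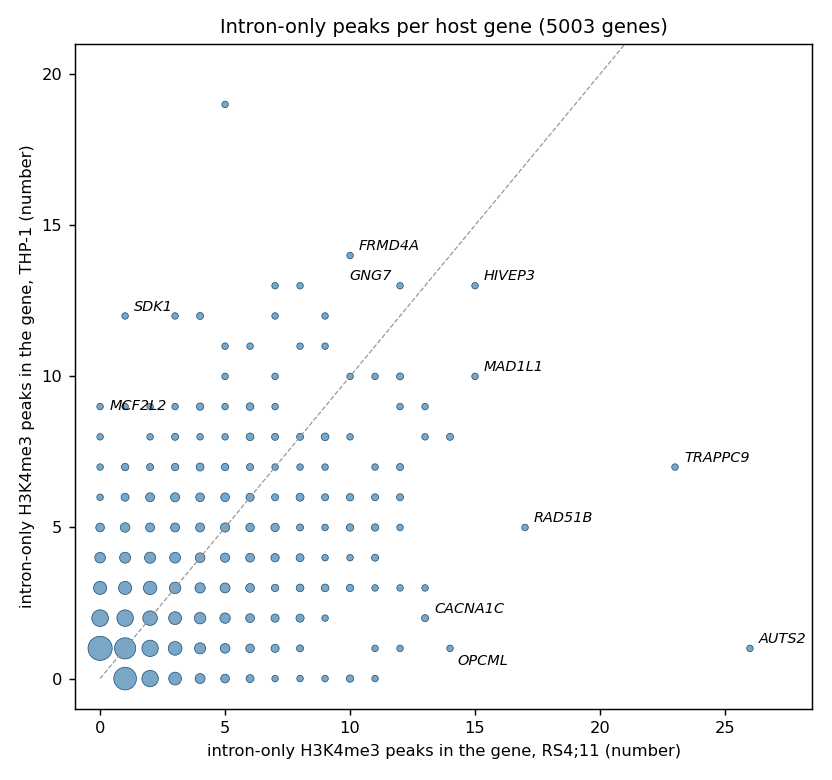
Number of intron-only H3K4me3 peaks in RS4;11 (horizontal axis) and THP-1 cells (vertical axis) for each of 5003 host genes, with the area of a point growing with the number of genes at that position and a dashed line of equal numbers. AUTS2 (26 against 1) and SDK1 (1 against 12) lie far from the line, and HIVEP3 (15 against 13) and GNG7 (12 against 13) near it.

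AUTS2, which encodes a nuclear protein found with a Polycomb complex, had the most members of any gene. In RS4;11 cells it held 26, from 24.3 to 1016 kb after its start and 479 to 3424 bp wide, and in THP-1 cells 1 of 480 bp, at 1097 kb. None was shared. The THP-1 member was CpG-rich and within 1000 bp of a GENCODE start site, whereas 0 of the RS4;11 members were CpG-rich and 1 was near such a site. A peak with an exon or upstream flag was listed for AUTS2 in THP-1 cells but not in RS4;11 cells. The gene spans 1195 kb of chromosome 7.

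Among other genes with far more members in RS4;11 cells were TRAPPC9, a subunit gene of a vesicle tethering complex (23 against 7), and RAD51B, a homologous recombination gene (17 against 5). OPCML, a cell adhesion gene (14 against 1), and CACNA1C, a calcium channel gene (13 against 2), were also among them. PLCB1 had the same numbers as CACNA1C. In RAD51B 1 position was shared, in OPCML 1, and in CACNA1C 0, while 4 of the 7 THP-1 members in TRAPPC9 overlapped an RS4;11 peak. The 17 RAD51B members lay between 262 and 744 kb after the start, with a median spacing of 23 kb. HIVEP3, a zinc finger gene (15 against 13), shared 8 positions between the lines, and LDLRAD4, a gene of TGF-beta signaling (14 against 8), shared 7. MAD1L1, a spindle checkpoint gene (15 against 10), VAV3, a guanine nucleotide exchange factor gene (13 against 8), MSI2, an RNA-binding protein gene of blood stem cells (13 against 9), and CNTNAP2, an adhesion gene (14 against 8), completed the 10 genes with the most RS4;11 members, and MSI2 shared 1 position. CACNA1C, PLCB1 (13 against 2) and FIRRE (13 against 3) tied with MSI2 and VAV3 at 13, and the tie was settled by the number in THP-1 cells.

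Other genes had far more members in THP-1 than in RS4;11 cells. SDK1, a cell adhesion gene, held 12 against 1, MCF2L2, an exchange factor gene, 9 against 0, NCAM2, another adhesion gene, 12 against 3, and PSD3, another exchange factor gene, 9 against 1. Of these, SDK1 and MCF2L2 had no shared position. FRMD4A, a scaffold protein gene (14 against 10), LPP, a LIM domain gene (13 against 8), and KIF26B, a kinesin family gene (13 against 7), also ranked high. So did the oxidoreductase gene WWOX (12 against 9), the membrane transport gene VPS13B (12 against 7) and RBM47, an RNA-binding protein gene (12 against 4). TSNAX-DISC1 (12 against 4) is a readthrough gene that overlaps DISC1, so its members cannot be assigned to 1 gene. GNG7, a G protein subunit gene of 191 kb, was denser than the other genes among the 10 with most members, with 6.27 members per 100 kb in RS4;11 and 6.79 in THP-1 cells, 6 of them shared.

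**Figure D4:**
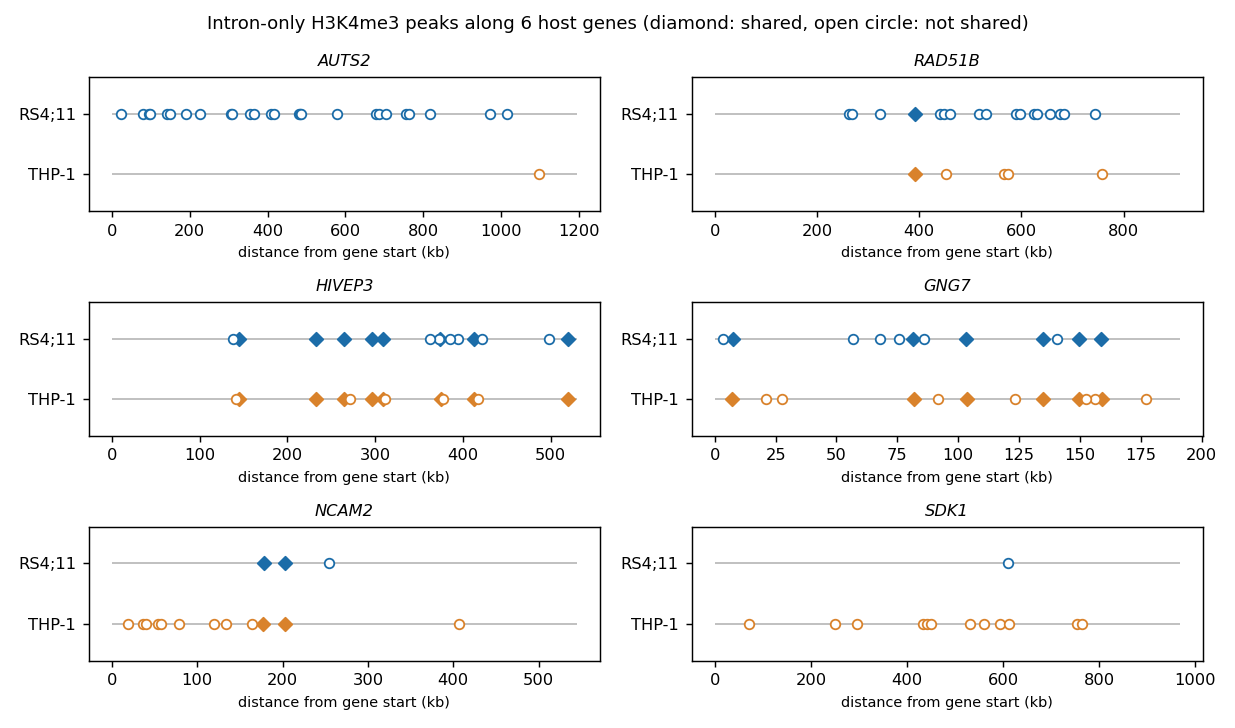
Centers of intron-only H3K4me3 peaks along 6 host genes, as distance from the gene start (kb, horizontal axis), in RS4;11 (blue) and THP-1 cells (orange). Diamonds overlap a peak of the other line and open circles do not: HIVEP3 has 8 and GNG7 6 diamonds per line, NCAM2 has 2, RAD51B has 1, and AUTS2 and SDK1 have none.

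Of all genes named for any H3K4me3 peak, 3476 of 16307 in RS4;11 (21.3%) and 3775 of 17412 in THP-1 cells (21.7%) hosted a member. Of 23 B-lineage genes, 7 (30.4%) hosted 25 members in RS4;11 and 6 (26.1%) hosted 25 in THP-1 cells. BACH2, a repressor of plasma cell differentiation, held 9 and 6, with 2 shared. EBF1, a factor of B-cell specification, held 6 in RS4;11 and 11 in THP-1 cells, with 2 shared and medians of 1904 and 904 bp. Of 26 myeloid genes 3 were hosts in each line (11.5%), with 6 and 3 members. The gene of the M-CSF receptor, CSF1R, held 2 members in RS4;11 cells, of 2028 and 3713 bp, and 1 in THP-1 cells, of 2764 bp, which was shared. IRF8, a factor of monocytes and B cells, held 3 in RS4;11 and 0 in THP-1 cells.

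Of 22 known targets and fusion partners of MLL, 11 (50%) hosted 27 members in RS4;11 and 15 (68.2%) hosted 46 in THP-1 cells. CDK6, a cell cycle kinase gene, held 3 and 6, JMJD1C, a gene of a jumonji protein, 0 and 5, FLT3, a receptor kinase gene of progenitors, 0 and 3, and BCL2, an inhibitor of apoptosis, 1 and 5. RUNX1, a core factor of blood development, held 6 and 3, and TCF4, an E-protein gene, 5 and 4, of which 3 were shared. These lists were not tested, and gene length was not matched. List genes named for no H3K4me3 peak were left out, such as MYB and MLLT3 of the 24 genes in the MLL list. The lists count genes named in either line, whereas the shares over all genes count those named in the line itself. Among 27 chromatin genes 10 and 9 were hosts with 28 members in each line, led by ARID1B (7 and 9) and KDM2B (5 and 7). Of 12 T-cell genes 2 and 1 were hosts, and of 7 erythroid genes only the ankyrin gene ANK1, with 4 and 9 members, of which 4 were shared. Of the WDR5 targets that the study followed, LYN, a Src family kinase gene, held 3 and 8 members, with 3 shared, and BCL9, a coactivator gene of Wnt signaling, held 2 and 1, with 1 shared.

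The motif letters carried by unshared members differed between the lines. The EBF1 letters occurred, on either strand within 250 bp of the center, in 15.9% (15.0 to 16.9%) of 5327 unshared RS4;11 members and in 5.5% (4.91 to 6.17%) of 5050 unshared THP-1 members. The letters of RUNX factors (TGTGGTTT) occurred in 12% and 5.7%, and an E-box (CAGCTG), the letters of bHLH factors, in 32.7% and 21.5%. In the other direction stood the CEBP letters, with 6.08% and 12.1%, those of PU.1 (GAGGAAGT), a factor of myeloid and B cells, with 6.55% and 9.66%, and those of AP-1 (TGANTCA), with 16.1% and 20.8%. The GATA letters (AGATAAG), of erythroid factors, were alike, with 7.13% and 6.79%.

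Shared members had nearly the same shares in both lines, such as 11.5% and 11% for EBF1, 10.3% and 9.96% for RUNX, and 6.92% and 7.03% for CEBP, as overlapping peaks must. Among all H3K4me3 peaks the shares were 17.7% (RS4;11) and 13.4% (THP-1) for EBF1, 6.63% and 4.07% for RUNX, 29.1% and 25.2% for the E-box, 4.47% and 6.75% for CEBP, 5.82% and 6.42% for PU.1, 11.8% and 13.4% for AP-1, and 4.89% and 4.61% for GATA. Median GC was 44.5% in unshared RS4;11 and 42.7% in unshared THP-1 members, and base composition sets how often letters occur. In unshared members of 45 to 50% GC the EBF1 letters were in 18.6% and 5.08%, and the CEBP letters in 5.49% and 9.46%, and the order was the same in the other 3 GC classes. Unshared downstream-only peaks had the EBF1 letters in 17.1% (RS4;11) and 8.39% (THP-1) and the CEBP letters in 6.79% and 11%, and unshared peaks with an exon or upstream flag in 19% and 12.5% and in 4.49% and 7.61%, so the difference was not restricted to introns. These shares are a description without a test, and a match does not show that a factor binds.

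**Figure D5:**
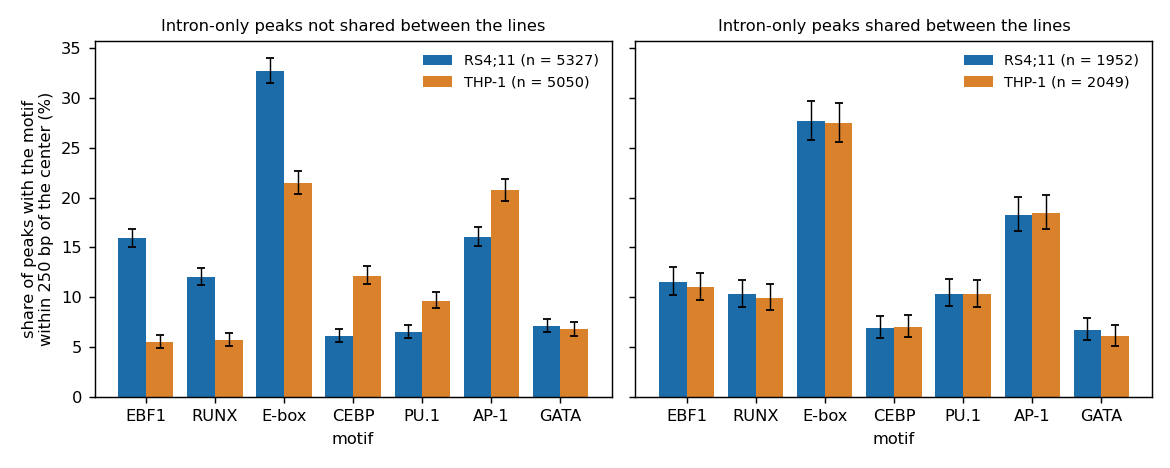
Share of intron-only peaks that carry each motif within 250 bp of the center (%, vertical axis, bars are 95% Wilson intervals over peaks) in RS4;11 (blue) and THP-1 cells (orange), for unshared (left) and shared (right) peaks. Among unshared peaks EBF1 stands at 15.9% against 5.5% and CEBP at 6.08% against 12.1%, and among shared peaks each pair of bars is close.

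Other letters were rarer or more frequent in members, shared or not, than in H3K4me3 peaks at large. The ETS letters (CCGGAAGT, which share GGAAGT with those of PU.1) were in 0.657% and 0.673% of unshared members against 2.68% and 2.41% of all H3K4me3 peaks, and the NRF1 letters (CGCATGCG) in 0.0563% and 0% against 0.893% and 0.845%. The letters of a TATA box (TATAAA) were in 31.9% and 36.1% against 19.7% and 19.4%, and those of IRF factors (GAAANNGAA) in 22.6% and 29% against 18% and 19.8%. Shared members leaned the same way, with ETS in 0.973% and 1.27%, TATA in 31.3% and 28.8%, and IRF in 29.4% and 28.9%. Unshared downstream-only peaks had TATA in 25.3% and 25% and IRF in 21.2% and 25.4%. The ETS and NRF1 letters contain CpG, so their shares are tied to the CpG content given above. The median GC of all H3K4me3 peaks was 53.5% and 53.3%.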

How the data were processed

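According to the methods, the authors cut the H3K4me3 chromatin with micrococcal nuclease and sonicated the WDR5 chromatin, whereas the labels describe sonication for every sample. Reads were placed on hg19 by the authors with Eland (up to 2 mismatches, unique locations only), and MACS with its default options gave the peaks, which a script joined to genes. CASAVA 1.7 and 1.8.2 are named in the submitters' processing notes. The deposited tables give positions and yes or no flags per transcript. They hold no counts, heights or p-values, so the depth is unknown, and peaks over 20 kb from a transcript are absent.

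Lines were reduced to distinct peaks, with both ends counted in widths and overlaps of at least 1 bp. Sequence came from GRCh37 and start sites from GENCODE release 44 mapped to it. RefSeq (GRCh38.p14) was used only for current gene symbols. Shares have 95% Wilson intervals. Sharing, WDR5 overlap and CpG-rich sequence were compared with the other peaks of the same line by Fisher's exact test (two-sided, 6 tests, Benjamini-Hochberg). Genes named are the 10 with most members per line, hosts of the 5 widest members and of members on a WDR5 peak, the 5 with the largest difference each way, hosts in the gene lists and the study's targets. LYN and BCL9 are the targets that held members. Some items that this rule names are not reported here. Sequences shown come from the widest members and the 5 genes that differ most, other than chromosome 8. The peaks, lists and motifs were chosen with earlier results of these data known. Scripts were tested on simulated data. Python 3.11.15, scipy 1.17.1, pandas 2.3.3 and pysam 0.24.0 were used.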

Additional observations from a re-analysis of the deposited data

How the results depend on the processing

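Of 58 alternatives computed, 1 changed direction, 1 passed the threshold where the value reported did not, 20 moved a share or count by more than its counting interval or 1.5 times, and 36 did none of these. The odds ratios of sharing and CpG-rich sequence stayed below 1 and past the threshold in every alternative run. Apart from the comparison with downstream-only peaks, these alternatives kept the peaks that the rule excludes as the comparison. The THP-1 odds ratio of WDR5 overlap, 0.475, turned to 1.01 when gaps of up to 1000 bp counted as overlap, and was 0.215 (Fisher's exact p 0.025, unadjusted) against downstream-only peaks. The number of intron-only peaks was 3526 and 3364 with GENCODE, which holds more transcripts. The share of members shared was 28.4% (RS4;11) and 30.3% (THP-1) with gaps of up to 1000 bp, 28.8% for RS4;11 with 1 member per gene, 26.7% for THP-1 against intron-only partners, and 24.5% and 26.2% without members near a GENCODE start site. CpG-rich shares were 1.52% and 2.8% with a stricter definition (GC over 55%, CpG ratio over 0.75) and 2.36% and 4.62% over whole peaks. Genes with 5 or more members numbered 320 and 252. Members near a start site were 11.5% and 13.9% within 500 bp, 21.2% and 23.6% within 2000 bp, and 5.98% and 8.73% for protein-coding transcripts. The cause of the moves with 1 member per gene and without members near a start site was not tested. The comparison with downstream-only peaks and the removal of members near start sites were chosen after seeing the data. No paired analysis was possible because each line has 1 sample per antibody, and for the same reason no replicate could be left out. No filter on peak strength could be run, since the tables hold none.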
